A study of Mus musculus with 2031 samples.

Results

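AST2 and AST3 are subtypes that the study assigned to astrocytes of the adult mouse forebrain by clustering single-cell transcriptomes, and they were compared here within cortex. The members were all cells of the cortical suspensions 1C and 2C that the study's list of cell types names AST2 or AST3, which were 828 of the 2031 cells of the series. AST2 held 523 of them, 240 from the first suspension and the rest from the second, and all others were AST3. The mice were untreated C57BL/6J animals of postnatal day 56, and each cortical suspension came from 1 animal of the same litter, so that every cortical value below rests on n = 2 animals, with both subtypes taken from each. Cells had been dissociated with papain, labelled with the ACSA-2 antibody against ATP1B2, a sodium pump subunit on the astrocyte surface, and sorted by flow cytometry as O1-negative, viable single cells onto 8 plates per suspension. Smart-seq2 copies the full length of polyadenylated RNA in each well and adds no molecular tags, so that every count is a read, and ERCC spike-ins, synthetic RNAs of known amount, were added to each well. Because the subtypes were found by clustering these same counts, the genes called below are a description of how the labels differ and not independent evidence that the subtypes are distinct.

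Astrocytes clear glutamate and potassium from the extracellular space, supply neurons with glutamine, lactate, serine and lipoprotein-borne cholesterol, and wrap vessels with endfeet rich in the water channel *Aqp4*. In cortex they also differ with depth, those beneath the pial surface being known for intermediate filaments such as *Gfap*. Immediate early genes, among them *Fos* and *Jun*, encode the AP-1 transcription factors and other proteins that cells make within minutes of a stimulus, before new protein synthesis is needed, and enzymatic dissociation of tissue is itself a known stimulus of them.

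AST3 made up 39.1% of the AST2 and AST3 cells of the first suspension (Wilson 95% interval 34.4 to 43.99) and 34.8% of those of the second (30.5 to 39.4). Every one of the 16 plates held both subtypes, with 15 to 44 AST2 and 11 to 30 AST3 cells. Intervals of this kind cover counting error only. The cells carried 609200 to 3056039 counts on genes, with median depths of 1450554.5 and 1424562 in AST2 and of 1711229 and 1745831 in AST3, in the first and second suspension. After every cell was thinned to 500000 gene counts, the median AST3 cell still had a count on more genes, 2419 and 2377 against 1991.5 and 1896 in AST2, a difference of 454 ± 37.8 genes (SD, n = 2 suspensions). As deposited the medians were 2627.5 and 2584 against 2155 and 2072. Gene counts per ERCC count were higher in AST3 by 0.49 ± 0.052 on the log2 scale (SD, n = 2), which is the direction seen on 16 of 16 plates. Reads outside annotated exons made up 14.4% and 13.2% of the reads of the median AST2 cell but 10.7% and 9.55% of those of the median AST3 cell. The mitochondrial genome took 4.13% and 4.06% of gene counts in AST2 and 2.87% and 3.05% in AST3. Both shares were lower in AST3 on 16 of 16 plates. With 2 suspensions an exact sign-flip test cannot go below p = 0.5, so no p is given for these measures. They differed between the same 4 sums as the gene levels below, and repeats at like numbers of genes per cell, at equal depth and with ERCC counts as library sizes are given below. Beyond these repeats, their part in those results was not tested.

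**Figure D1:**
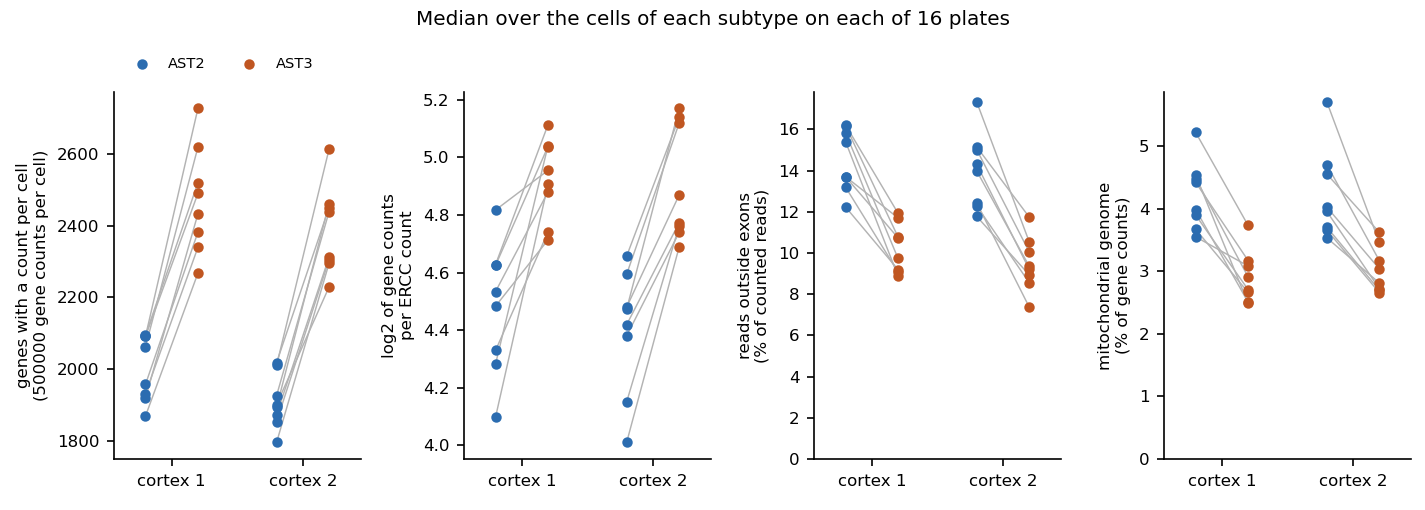
Median over the cells of AST2 (blue) and AST3 (orange) on each of the 8 plates of each cortical suspension, with lines joining the subtypes of a plate: genes with a count after thinning to 500000 gene counts, log2 of gene counts per ERCC count, reads outside exons as a percentage of counted reads, and the mitochondrial share of gene counts in percent. On all 16 plates AST3 lay above AST2 in the first 2 panels and below it in the other 2.

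To ask which genes differed between the subtypes, counts were summed per subtype and suspension, and the 4 sums, of 263552161 to 418823674 counts, were compared in edgeR with the suspension as a replicate block. Of 49671 listed genes, the 6787 with a count in at least 10% of the 828 cells were tested, and genes with an adjusted p (Benjamini-Hochberg) below 0.05 were called. Levels are CPM, a gene's count scaled to a common library total with TMM factors, and differences are fitted log2 fold changes of AST3 minus AST2 with their standard error (SE). AST3 had the higher level of 1.61% of the genes tested and AST2 of 1.47%, which was 100 genes. Together these calls were 3.08% of the genes tested, and each had the same direction in both suspensions. Most differences were modest. The median called fold was 1.68 among genes higher in AST3 and 1.72 among genes higher in AST2, with 32 and 37 genes beyond 2-fold. Without the replicate block 68 genes were called higher in AST3 and 74 in AST2. The calls are those of 1 residual degree of freedom supported by a spread shared across genes: 0 genes were called by edgeR when the cortical AST1 sums joined the fit (4.89% of genes at an unadjusted p under 0.05), when all 12 sums of AST1 to AST3 did (2.18%), or when sparser genes were tested as well (6.73% of 16564 and 4.07% of 23076 genes), whereas DESeq2 called 3.51% of genes higher in AST3 and 3.70% in AST2. Scaled to ERCC counts, which keeps the larger RNA yield of AST3 cells and moves the median of all genes to 0.46, the split became 1256 against 25, and the mean over cells of log2(CPM + 1), with a median of 0.25, gave 1222 against 78 in limma. Differences below are therefore relative to the median gene of the 4 sums.

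**Figure D2:**
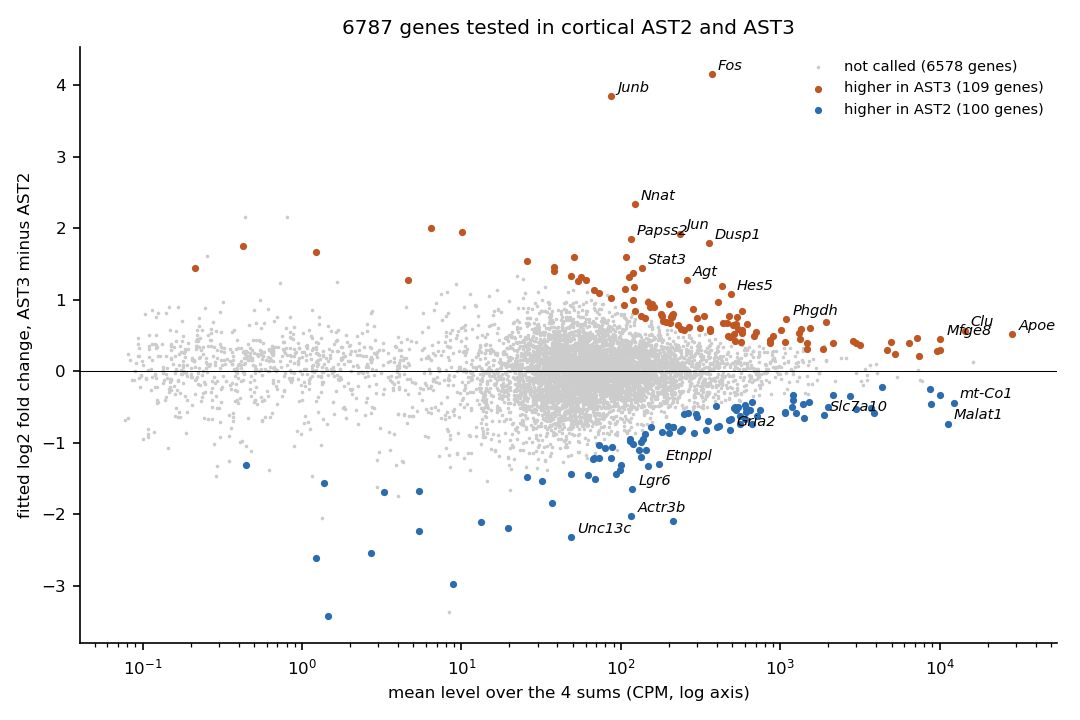
Each point is 1 of the 6787 genes tested, with its mean CPM over the 4 sums on a log axis and its fitted log2 fold change, AST3 minus AST2. Orange points (1.61% of genes) were called higher in AST3, blue points (1.47%) higher in AST2, and grey points (6578) were not called; *Fos* stands at 4.16 and *Unc13c* at −2.32.

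The widest differences in favour of AST3 were those of 2 immediate early genes, *Fos* and *Junb*, with *Nnat*, described further down, next and the other called members of their list below it. *Fos* (chr12:85473890-85477273, GRCm38), an AP-1 subunit, had 54.7 and 27.9 CPM in the AST2 sums of the first and second suspension, and 754 and 644 CPM in the AST3 sums. That is 17.8-fold (log2 4.16, SE 0.188, edgeR adjusted p = 3.7e-06). The values did not overlap, which was so for 22.5% of the genes tested in this direction. A count of *Fos* was found in 11.7% and 8.13% of AST2 cells and in 33.8% and 39.1% of AST3 cells, so most cells of either subtype had none. The difference in *Fos* was wider on plates whose template-switching oligonucleotide had seen no freeze-thaw cycle, with log2 ratios of 6.496 and 5.43 in the first and second suspension, than on the other plates, with 2.85 and 3.05; this contrast was not tested. *Jun*, its AP-1 partner, rose from 114.2 and 81.99 CPM in AST2 to 421 and 320.5 CPM in AST3 (log2 1.93, SE 0.147, edgeR adjusted p = 2.5e-05). *Dusp1*, a phosphatase that switches off MAP kinases, was at 179.6 and 141.1 CPM in AST2 and at 583 and 518 CPM in AST3 (log2 1.79, SE 0.126). *Ccn1*, a secreted matrix protein, was at 261.4 and 261.6 CPM against 608 and 592 CPM (log2 1.198, SE 0.112). AST3 was the higher subtype on 15 of 16 plates for *Fos*, 16 for *Jun*, 15 for *Dusp1* and 13 for *Ccn1*. At least 14 plates in that direction was reached by 1.99% of the genes tested, and at least 14 in their own direction by 71.8% of all called genes. The plates hold the same cells as the sums, so plate counts of called genes are a description and no support. In all, 6 of the 8 tested members of the list of 30 were called higher in AST3, against 1.61% of all genes tested, and 0 were called lower, with a median log2 fold change of 1.69 against 0.0050 over all genes tested. The other called members, named here after their values were seen, were *Junb* (log2 3.85, SE 0.339) and *Btg2* (log2 1.59, SE 0.279), while *Klf6* and *Rhob* did not pass. *Junb* had a count in 6.25% and 2.83% of AST2 cells and in 22.1% and 17.2% of AST3 cells, so it passed the filter of 10% only through AST3, and *Fos* was near that limit in AST2. A list counted after this filter favours members that are high in AST3, so the count and median above are a description and no support. The 22 untested members had a count in 0 to 9.30% of the cells. Among these, chosen after their values were seen, *Egr1*, a zinc finger transcription factor, had 1.27 and 2.02 CPM of the unscaled AST2 sums and 43.8 and 45.9 CPM in AST3, while *Egr3*, *Klf2* and *Ccn2* had no count at all. *Fosb*, *Jund*, *Ier2*, *Ier5*, *Nr4a1*, *Klf4* and *Zfp36* were also higher in AST3 in both suspensions. Only *Gadd45b*, *Nr4a2* and *Sgk1* were lower in both. *Gadd45b*, a stress-response gene, had 9.35 and 3.43 CPM in AST2 against 2.24 and 0.242 CPM in AST3. *Nr4a2*, an orphan nuclear receptor, had 4.50 and 0.170 against 0.0987 and 0.0671 CPM, and *Sgk1*, a kinase, 4.38 and 1.88 against 3.78 and 0.00373 CPM. Each of these was near the floor, with a count in at most 2.92% of the cells of any sum. *Sgk1* had a count in a larger share of AST3 than of AST2 cells. The remaining untested members had no common direction in the 2 suspensions. Heat shock genes, another group that stress can move, had 0 called members by edgeR of 7 tested of 11, against 3.08% over all genes. Of the 7, 1 was at an unadjusted p under 0.05, and the median was 0.13. Called higher in AST3 were 4 in limma on mean log values, 3 with ERCC counts as library sizes and 1 in DESeq2. Over all genes these shares were 18.0%, 18.5% and 3.51%. *Hspa8*, a constitutive chaperone, was at 0.16 (SE 0.077), *Hsp90ab1* at 0.13 (SE 0.111) and *Hsp90aa1* at 0.67 (SE 0.203).

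The promoters of the 2 immediate early genes with the widest fold and of the 2 called members that hold a full cyclic AMP response element are shown, from RefSeq on GRCm38.p6, each from 250 bases before the start of transcription to 50 bases after it and read 5′ to 3′ on the strand of the gene. The windows are chr12:85473640-85473939 (plus strand) for *Fos*, chr8:84978699-84978998 (minus) for *Junb*, chr17:26508423-26508722 (minus) for *Dusp1* and chr1:134079106-134079405 (minus) for *Btg2*. Capitals mark the cyclic AMP response element TGACGTCA, which reads the same on both strands.
Fos: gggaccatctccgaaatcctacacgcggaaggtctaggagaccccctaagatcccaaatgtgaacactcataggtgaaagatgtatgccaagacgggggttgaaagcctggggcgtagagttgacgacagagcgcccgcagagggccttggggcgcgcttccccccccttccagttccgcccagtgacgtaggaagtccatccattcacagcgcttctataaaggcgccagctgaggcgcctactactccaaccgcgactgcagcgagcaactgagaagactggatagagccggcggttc
Junb: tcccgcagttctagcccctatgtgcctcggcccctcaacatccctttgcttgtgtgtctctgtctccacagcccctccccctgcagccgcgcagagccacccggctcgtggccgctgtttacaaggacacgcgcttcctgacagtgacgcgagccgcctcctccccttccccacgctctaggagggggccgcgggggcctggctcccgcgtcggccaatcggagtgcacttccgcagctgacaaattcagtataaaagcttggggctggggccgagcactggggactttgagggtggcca
Dusp1: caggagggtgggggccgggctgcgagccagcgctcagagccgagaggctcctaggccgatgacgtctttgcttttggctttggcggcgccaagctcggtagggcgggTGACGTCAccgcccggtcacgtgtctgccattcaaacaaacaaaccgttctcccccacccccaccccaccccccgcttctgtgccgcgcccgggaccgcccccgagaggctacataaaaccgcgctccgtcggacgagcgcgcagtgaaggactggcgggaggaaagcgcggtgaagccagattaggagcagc
Btg2: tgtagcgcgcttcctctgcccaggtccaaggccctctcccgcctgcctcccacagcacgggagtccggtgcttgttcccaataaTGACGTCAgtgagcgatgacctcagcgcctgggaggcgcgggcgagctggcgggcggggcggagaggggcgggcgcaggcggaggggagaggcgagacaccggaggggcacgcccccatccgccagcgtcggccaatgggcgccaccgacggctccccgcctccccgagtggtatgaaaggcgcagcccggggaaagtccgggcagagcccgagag
These letters occur in 1.79% of the 32851 promoter windows, and among the windows of the immediate early genes in 3 of 35, those of *Btg2*, *Dusp1* and *Maff*; 24 of the 30 genes of the list had a window. A match is only a description of the letters.

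The levels of other genes were then taken in cells with no count of *Fos*, *Fosb*, *Jun* and *Junb*, a choice made after the values were seen. Counts of at least 1 of these were found in 34.2% and 26.1% of AST2 cells and in 53.2% and 60.9% of AST3 cells, which left 72 and 59 AST3 cells and the larger share of the AST2 cells. The difference in *Dusp1* was then 0.20, in *Ccn1* 0.32 and in *Btg2* −0.07, none of them called. Cells were chosen on genes of the same list, so smaller differences in these could follow from the choice alone. Given beside them as a description only, *Nnat* stood at 2.37, *Papss2* at 1.92, *Stat3* at 1.61 and *Agt* at 1.36. Of these last 4, *Stat3* (edgeR adjusted p = 0.023) and *Agt* (edgeR adjusted p = 0.021) were called in the smaller set, and *Nnat* (edgeR adjusted p = 0.087) and *Papss2* (edgeR adjusted p = 0.056) were not. In these cells 31 genes were called higher in AST3 and 37 higher in AST2. Calls were also fewer in other lists described below, named after their values were seen. The layer and regional markers had 1 call against 5 in all cells, with a median of 0.64 against 0.81. The BMP and Id genes had 0 against 2, and the potassium and sodium pump genes 0 against 2. The mitochondrial genes had 4 against 5, and the lipoprotein genes had 2 in both.

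Beyond the immediate early genes, and leaving out clone-type names, the called genes of widest fold with a count in over 25% of AST3 cells were *Nnat*, *Papss2*, *Stat3* and *Fmo1*. *Nnat* (chr2:157560078-157562522), an imprinted gene for a small membrane protein of the endoplasmic reticulum, had 34.3 and 45.6 CPM in AST2 against 240.2 and 167.7 CPM in AST3 (log2 2.34, SE 0.251, edgeR adjusted p = 0.00038). It was detected in 18.3% and 21.9% of AST2 cells and in 59.1% and 58.3% of AST3 cells. *Papss2*, which makes the sulfate donor for glycan sulfation, was at 43.1 and 57.4 CPM against 202.1 and 157.7 CPM (log2 1.84, SE 0.237). *Stat3*, a transcription factor downstream of cytokine receptors, was at 67.7 and 79.1 CPM against 197.2 and 199.7 CPM (log2 1.44, SE 0.189, edgeR adjusted p = 0.0015). *Agt* (chr8:124556534-124569706), the angiotensinogen precursor that astrocytes secrete, had 173.6 and 130.6 CPM in AST2 and 395 and 334.2 CPM in AST3 (log2 1.27, SE 0.140). All of these sums were separated by subtype, without overlap, which was so for 22.5% of the genes tested in this direction. Other members of the 12 genes with the widest fold and a count in over 25% of AST3 cells were *Fmo1*, a flavin monooxygenase (1.37), the kinase gene *Src* (1.32) and *Gadd45g*, a growth arrest gene (1.31). *Src* is the exception in the same split by freeze-thaw cycles, which the labels record for each plate: it stood at −0.15 in the plates of the first suspension without such a cycle, and between 1.41 and 2.03 in the other 3 sets. The other 76 of the 77 called genes named here kept their direction in all 4 sets. These sets hold the same cells as the sums, and each call already had 1 direction in both suspensions. Directions kept in the sets are therefore a description and no support.

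**Figure D3:**
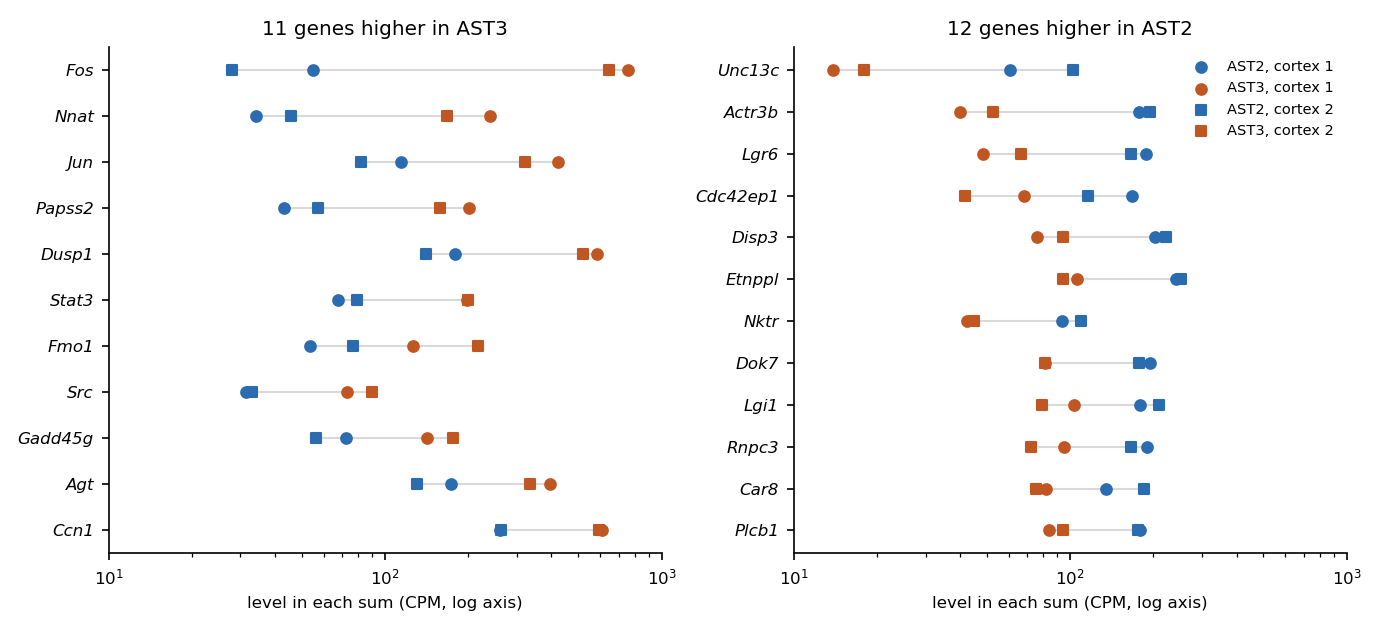
Levels (CPM, log axis) in the 4 sums of called genes among the 12 with the widest fold in each direction, 11 higher in AST3 and 12 higher in AST2: AST2 blue, AST3 orange, circles for the first and squares for the second cortical suspension. *Fos* ran from 27.9 to 754 CPM and *Unc13c* from 13.9 to 102.5 CPM, and in each of these genes the 2 subtypes did not overlap. Of all genes tested, 22.5% did not overlap with AST3 higher and 22.1% with AST2 higher.

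A list of 10 layer and regional markers joined genes that the study discusses from earlier work, *Gfap*, *Mfge8*, *Id3*, *Chrdl1* and *Il33* for cortical layers, *Igfbp2* and *Sparc* for cortical and *Nnat* and *Fabp7* for hippocampal astrocytes, with *Id1*, which was added here. All were tested, 5 were called higher in AST3, against 1.61% of all genes, and 0 higher in AST2, with a median of 0.81. *Gfap*, the intermediate filament protein of astrocytes, had 125.5 and 89.6 CPM in AST2 and 178.6 and 232.5 CPM in AST3 (log2 0.94, SE 0.217, edgeR adjusted p = 0.041), and was higher on 11 of 16 plates. *Fabp7*, a fatty acid carrier of radial glia and astrocytes, was at 140.2 and 133.7 CPM against 286.5 and 241.6 CPM (log2 0.94, SE 0.156). *Id3*, an inhibitor of basic helix-loop-helix factors, was at 488 and 344.6 CPM against 743 and 734 CPM (log2 0.85, SE 0.122). *Mfge8*, a secreted bridge between dying cells and phagocytes, was at 7913 and 9176 CPM against 11160 and 12168 CPM (log2 0.45, SE 0.044). *Nnat*, described above, is the fifth. Values that did not pass were 0.96 for *Id1*, 0.77 for *Sparc*, 0.35 for *Il33*, −0.23 for *Chrdl1* and −0.26 for *Igfbp2*. Of the Notch, BMP and Wnt lists 4 genes were called by edgeR, each higher in AST3. DESeq2 called 1 Notch, 4 BMP and Id, and 3 Wnt genes higher in AST3, and 1 Notch and 2 Wnt genes higher in AST2. In limma on mean log values 2, 5 and 3 were higher in AST3, and 1 Notch gene in AST2. *Hes5*, the main Notch target of neural progenitors and astrocytes, doubled from 326.6 and 300.7 CPM to 645 and 680 CPM (log2 1.08, SE 0.109, edgeR adjusted p = 0.00025) and was the 1 call among 9 tested of 16 Notch pathway genes. *Id4* (0.70) joined *Id3* as the 2 calls among 7 tested of 12 BMP and Id genes, and *Dkk3* (0.75), a secreted Wnt modulator, was the 1 call among 10 tested of 15 Wnt genes, whose median was −0.24. Of the intermediate filament and reactive astrocyte genes only 2 of 12 were expressed widely enough to be tested, *Gfap* among them.

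Of 8 tested lipoprotein genes 2 were called, both higher in AST3 by less than 2-fold, and the list median was 0.034. *Apoe*, the main lipoprotein of the brain, had 22705 and 24233 CPM in AST2 and 33502 and 33707 CPM in AST3 (log2 0.52, SE 0.035, edgeR adjusted p = 1.2e-05). *Clu*, the chaperone and apolipoprotein clusterin, was at 11209 and 11875 CPM against 16772 and 17487 CPM (log2 0.57, SE 0.039, edgeR adjusted p = 1.2e-05). AST3 was higher on 16 of 16 plates in both. Of the other 6 members, none of which passed and which are named after their values were seen, *Lrp4*, an agrin receptor, stood at 0.65 (SE 0.280), and the sterol transporters *Npc1* and *Npc2* at 0.07 (SE 0.184) and 0.0019 (SE 0.146). Below 0 were *Lcat*, which esterifies cholesterol on lipoproteins, at −0.31 (SE 0.081), *Lrp1*, a lipoprotein receptor, at −0.48 (SE 0.167) and *Abca1*, a cholesterol exporter, at −0.53 (SE 0.256). DESeq2 called 2 of these genes higher in AST2. Secreted synaptic factors gave 2 calls among 9 tested of 16 (22.2%, against 3.08% over all genes), *Sparcl1* (0.46, SE 0.050), the synapse-promoting hevin, and *Gas6* (0.75, SE 0.181), a ligand of the phagocytic receptor *Mertk*, with a list median of 0.46.

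Relative to the median gene of the 4 sums, endfoot and metabolic genes were split between the subtypes. The water channel *Aqp4* had 1182 and 1275 CPM in AST2 and 1844 and 1876 CPM in AST3 (log2 0.60, SE 0.073, edgeR adjusted p = 0.00083). *Dag1*, the dystroglycan that helps to anchor it, was called as well, at 0.59 (SE 0.121). The gap junction gene *Gjb6*, connexin 30, went the other way, from 2179 and 2520 CPM in AST2 to 1605 and 1698 CPM in AST3 (log2 −0.51, SE 0.069, edgeR adjusted p = 0.0018). The 12 endfoot and gap junction genes gave 3 calls to AST3 and 1 to AST2 in all (33.3%, against 3.08% over all genes). With ERCC counts as library sizes they gave 7 and 0, where 18.5% and 0.368% of all genes were called, so the split was not kept under that scaling. In serine synthesis, levels were higher in AST3 at *Phgdh*, its first enzyme (834 and 807 CPM against 1284 and 1441 CPM, log2 0.73, SE 0.086), and *Psph*, its last (log2 0.77, SE 0.162), while *Psat1*, the enzyme between them, named after its value was seen, stood at 0.04 (SE 0.094). With *Slc7a10* these made 2 calls to AST3 and 1 to AST2 among 11 tested of 14 amino acid genes (27.3%, against 3.08% over all genes). With ERCC counts as library sizes the list had 6 and 0. Glutamate handling divided into *Slc1a3*, the transporter GLAST (0.29, SE 0.044), and *Glud1*, glutamate dehydrogenase (0.41, SE 0.085), higher in AST3, and the glutamine exporter *Slc38a3* (−0.58, SE 0.080), higher in AST2. With *Aqp4* and a second gene on the AST2 side, *Slc25a18*, these were 3 and 2 calls among 9 tested of 11 (55.6%, against 3.08% over all genes). With ERCC counts as library sizes the calls were 5 to AST3 and 0 to AST2. *Pygb*, brain glycogen phosphorylase, had 1082 and 1055 CPM in AST2 and 1557 and 1535 CPM in AST3 (log2 0.53, SE 0.075) and was the 1 call among 27 tested of 30 glycogen and glycolysis genes, 3.70% against the 3.08% over all genes. Higher in AST3 were 22 of the 27 with ERCC counts as library sizes and 16 in limma on mean log values, against 18.5% and 18.0% of all genes. Other AST3 calls were *Gstm1* (0.40) and *Prdx6* (0.24) of 15 tested of 19 metallothionein and peroxide genes, *Fads2*, a fatty acid desaturase (0.54), the 1 call of 12 genes of fatty acid synthesis, and *Crot* (0.41), a peroxisomal carnitine transferase.

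Among called genes with a count in over 25% of AST2 cells, leaving out clone-type names, those with the widest fold in favour of AST2 were *Unc13c*, *Actr3b*, *Lgr6* and *Cdc42ep1*. *Unc13c* (chr9:73479422-73968966), a relative of the factors that prime synaptic vesicles, had 60.6 and 102.5 CPM in AST2 and 13.9 and 18.0 CPM in AST3 (log2 −2.32, SE 0.317, edgeR adjusted p = 0.0018). It was detected in 26.3% and 31.4% of AST2 cells and in 11.7% and 12.6% of AST3 cells, although AST3 cells were sequenced more deeply. AST2 was higher on 16 of 16 plates. *Actr3b*, a subunit of actin-branching complexes, was at 178.0 and 193.9 CPM against 39.9 and 52.5 CPM (log2 −2.02, SE 0.209, edgeR adjusted p = 0.00027). *Lgr6*, a receptor for R-spondins, was at 188.2 and 166.4 CPM against 48.3 and 66.2 CPM (log2 −1.65, SE 0.224). *Etnppl*, which breaks down phosphoethanolamine, was at 240.7 and 251.7 CPM against 106.2 and 93.9 CPM (log2 −1.30, SE 0.169). Values for the others were −1.39 for *Cdc42ep1*, an effector of Cdc42, −1.33 for *Disp3*, −1.21 for *Nktr*, −1.19 for *Dok7*, a kinase adaptor, −1.10 for *Lgi1*, a secreted ligand of synaptic adhesion proteins, −1.10 for *Rnpc3*, a component of the minor spliceosome, −1.01 for *Car8*, a carbonic anhydrase relative, and −0.99 for *Plcb1*, a phospholipase C. In all 12 the AST2 level was the higher on at least 14 plates, which 2.48% of the genes tested reached in that direction and 71.8% of all called genes in their own. These 12 were chosen by their fold in the same cells, so the plate counts are a description and no support. Non-overlapping sums with AST2 higher were seen for 22.1% of the genes tested.

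A list of 14 genes was drawn up here from those that the study describes as marking AST2 or as differing between subtypes. Of these, *Fam107a* serves the study as a marker of AST5, and low or absent *Ogt* serves it to identify AST5 as well. All 14 were tested, 7 were called higher in AST2, against 1.47% of all genes, and 0 higher in AST3, and the median was −0.50. With ERCC counts as library sizes 2 were called higher in AST2 and 1 in AST3, with a median of −0.048, while DESeq2 called 11 and limma on mean log values 5, each higher in AST2. The list rests on an account of these same cells, so this count is not independent evidence of their direction. *Gria2*, the AMPA receptor subunit that limits calcium entry, had 613 and 626 CPM in AST2 and 348.7 and 351.2 CPM in AST3 (log2 −0.82, SE 0.105, edgeR adjusted p = 0.0013), and it was the 1 call among 3 tested of 12 glutamate receptor genes (33.3%, against 3.08% over all genes). *Slc7a10*, the serine and alanine exchanger, was at 2107 and 2445 CPM against 1462 and 1512 CPM (log2 −0.61, SE 0.072, edgeR adjusted p = 0.00068). *Ogt*, the enzyme of protein O-GlcNAcylation, stood at −0.77 (SE 0.115), *Mertk*, a phagocytic receptor kinase, at −0.55 (SE 0.092), and the leak channel gene *Kcnk1* at −0.51 (SE 0.079). *Fam107a* was at −0.42 (SE 0.095), a difference that turned to 0.03 with ERCC counts as library sizes. Not called were *Sema4b* (−0.58), *Tlr3* (−0.50), *Slitrk2* (−0.41), *Tril* (−0.25), *Chrdl1* (−0.23), *Wfs1* (−0.21) and *Mfsd2a* (−0.03). In a list of 7 genes drawn up in the same way for AST3 the 1 call was *Agt* (14.3%, against 3.08% over all genes), and the median was 0.15. DESeq2 called 2 of the 7 higher in AST3, and ERCC scaling and limma on mean log values 4 each, with 1 higher in AST2 in limma. *Il33* (0.35), *Etv5* (0.34), *Spon1* (0.15), *Kcnj16* (0.14), *Gabrg1* (0.14) and *Igfbp2* (−0.26) did not pass within cortex. The suspensions differed in sign for *Gabrg1* (log2 ratios of 0.57 in the first and −0.29 in the second), *Spon1* (0.43 and −0.12) and *Kcnj16* (0.31 and −0.029). The share of cells with a count was higher in AST3 in both suspensions for each, such as 73.4% and 64.2% against 48.3% and 55.1% in AST2 for *Gabrg1*. AST3 cells also had a count on more genes in general. The study set each subtype against all other astrocytes, of both regions, which is another comparison than the one here.

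Of the nuclear RNAs 3 of 5 tested, and of the mitochondrial genes 5 of 13, were called higher in AST2, the subtype with the larger shares of reads outside exons and of mitochondrial counts; over all genes 1.47% were called in this direction. The mitochondrial calls were lost with ERCC counts as library sizes. *Malat1*, an abundant RNA of nuclear speckles, had 14830 and 13134 CPM in AST2 and 9137 and 7732 CPM in AST3 (log2 −0.73, SE 0.043, edgeR adjusted p = 3.7e-06), and was higher in AST2 on 16 of 16 plates. *Gm26917*, a locus annotated as a long noncoding RNA, was at 292.4 and 392 CPM against 85.98 and 73.5 CPM (log2 −2.09, SE 0.185). *Mir124-2hg*, the host transcript of a microRNA, was at −0.84 (SE 0.142). The list of nuclear long noncoding RNAs had 11 members, and 0 were called higher in AST3. All 13 protein-coding mitochondrial genes had a fitted value below 0, 5 of them called, with a median of −0.61. *mt-Nd1* and *mt-Nd4*, subunits of complex I, both stood at −0.58, and *mt-Cytb*, of complex III, at −0.46. *mt-Co1*, the catalytic subunit of cytochrome oxidase, had 14253 and 13912 CPM in AST2 and 10486 and 10304 CPM in AST3 (log2 −0.44, SE 0.040), and stood at 0.016 with ERCC counts as library sizes. Under that scaling *mt-Nd1* was at −0.13, *mt-Nd4* at −0.12 and *mt-Cytb* at −0.0071, none of them called, and the median of all genes was 0.46.

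Cholesterol synthesis gave 3 calls to AST2 and 0 to AST3 among 24 tested of 25 genes, 12.5% against 3.08% over all genes, and a median of −0.20. The direction depended on the scaling: with ERCC counts as library sizes the list had 6 calls to AST3, 0 to AST2 and a median of 0.26, and limma on mean log values gave 3 calls to AST3 and 2 to AST2. *Insig1*, which holds back the sterol-sensing transcription factors and is itself their target, had 857 and 786 CPM in AST2 and 599 and 408 CPM in AST3 (log2 −0.73, SE 0.114, edgeR adjusted p = 0.0043). *Dhcr7*, the enzyme of the final reduction to cholesterol, stood at −0.55 (SE 0.096). *Msmo1*, a sterol demethylase, was at −0.35 (SE 0.062) and turned to 0.10 with ERCC counts as library sizes. The core of the sterol regulatory element, TCACNCCAC on either strand, was found in 0 of the promoter windows of these 3 genes, in 1 of 25 windows of the list, that of *Hmgcs1*, and in 1.24% of all windows.

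**Figure D4:**
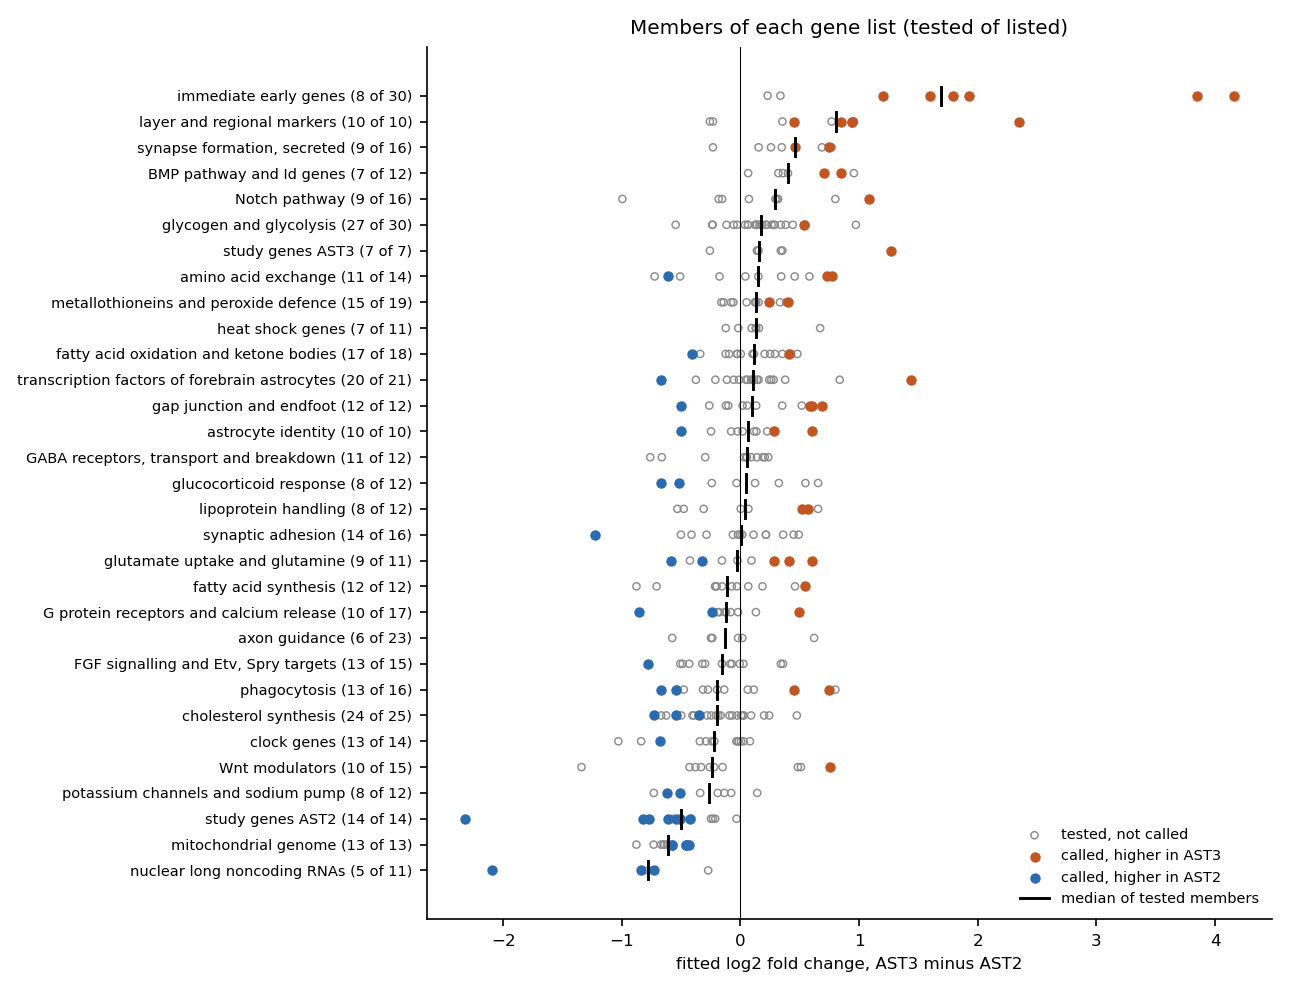
Fitted log2 fold change, AST3 minus AST2, of the tested members of each gene list with at least 5 of them (numbers tested and listed in parentheses). Open circles were not called, filled circles were called (orange higher in AST3, blue higher in AST2), and bars are list medians, which run from −0.78 for nuclear long noncoding RNAs to 1.69 for immediate early genes.

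Further lists held 1 or 2 AST2 calls each, where 1.47% of all genes were called in that direction, and with ERCC counts as library sizes 0 of these lists kept an AST2 call and each had calls to AST3, such as 2 for the potassium and sodium pump genes, whose median turned to 0.19, and 6 for synaptic adhesion. *Atp1b1*, a beta subunit of the sodium pump, had 795 and 940 CPM in AST2 and 529 and 596 CPM in AST3 (log2 −0.62, SE 0.092) and with *Kcnk1* made 2 calls among 8 tested of 12 potassium and sodium pump genes, whose median was −0.27. *Hrh1*, the histamine H1 receptor (−0.86, SE 0.134), and *Gpr37l1* (−0.24, SE 0.053, and 0.21 with ERCC counts as library sizes) were higher in AST2, and *Adgrg1*, an adhesion receptor (0.49, SE 0.090), in AST3, among 10 tested of 17 receptor and calcium release genes. *Cntn1*, an adhesion protein (−1.23, SE 0.282), was the 1 call of 14 tested of 16 synaptic adhesion genes. *Dusp6*, a feedback phosphatase of ERK (−0.78, SE 0.163), was the 1 call of 13 tested of 15 FGF genes, and *Per3* (−0.68, SE 0.109) the 1 call of 13 tested of 14 clock genes. *Tsc22d3*, a glucocorticoid-induced leucine zipper gene, had 751 and 726 CPM in AST2 and 467 and 461 CPM in AST3 (log2 −0.67, SE 0.097). With *Hsd11b1*, which regenerates active glucocorticoid (−0.52, SE 0.115), it made 2 calls among 8 tested of 12 glucocorticoid response genes, whose median was 0.045. *Tsc22d3* and *Stat3* were also the 2 calls, in opposite directions, among 20 tested of 21 forebrain transcription factors. Phagocytosis genes were split as well, with *Mertk* and the engulfment adaptor *Elmo2* (−0.67, SE 0.106) on the AST2 side, and *Mfge8* and *Gas6* on the AST3 side, of 13 tested of 16. In fatty acid oxidation *Acsl3* (−0.41, SE 0.080, and 0.046 with ERCC counts as library sizes) faced *Crot*, among 17 tested of 18. GABA genes had 0 calls by edgeR among 11 tested of 12 and axon guidance 0 among 6 tested of 23, with 1 and 2 members at an unadjusted p under 0.05; *Gabrb1*, a GABA receptor subunit, was at −0.30 (SE 0.0998), *Plxnb1* at 0.015 (SE 0.182) and *Sema6d* at −0.24 (SE 0.171).

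The 10 astrocyte markers summed to 42799 and 43129 CPM of the unscaled sums in AST2 and to 45169 and 45384 CPM in AST3, with 2 calls to AST3 (*Slc1a3*, *Aqp4*) and 1 to AST2 (*Gjb6*), or 30% of the list against 3.08% over all genes. With ERCC counts as library sizes there were 8 calls to AST3 and 0 to AST2, and in limma on mean log values 4 and 1. Over all genes 18.5% and 18.0% were called higher in AST3 in these 2 fits. Markers of other cells were lower. The 6 precursor markers had the largest sums, 151.8 to 325.7 CPM, higher in AST2 than in AST3 in both suspensions. The 6 endothelial markers summed to 0.224 to 3.68 CPM in the 4 sums, the 5 neuronal markers to 17.1 to 36.8 CPM, the 4 microglial markers to 8.26 to 17.7 CPM and the 7 oligodendrocyte markers to 24.1 to 98.6 CPM, and of these lists 0 genes were called, 1 having been tested. Mural markers summed to 79.97 to 170 CPM, most of it *Pdgfrb* (0.47, SE 0.226, not called). The defining precursor markers *Pdgfra* and *Gpr17* had no count in any sum, but *Olig1*, a transcription factor of the oligodendrocyte lineage, had 283.5 and 255.3 CPM in AST2 and 143.6 and 169.8 CPM in AST3 (log2 −0.79, SE 0.160, edgeR adjusted p = 0.020). *Olig2*, of the same family, stood at −1.27 (SE 0.325, edgeR adjusted p = 0.062), and DESeq2 and limma called both. With ERCC counts as library sizes 0 precursor markers were called, and 0 in cells with no count of *Fos*, *Fosb*, *Jun* and *Junb*. Their medians there were −0.58 and −0.96. Without the 5 AST2 and 4 AST3 cells that had counts on 3 or more markers of another type, 91 genes were called higher in AST3 and 94 in AST2.

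Since AST3 cells had more genes, the comparison was repeated on cells with 2200 to 2600 genes as deposited, a window chosen after the values were seen, which held 77 and 60 AST2 and 52 and 51 AST3 cells. There 2 genes were called, *Apoe* (0.60) and *Clu* (0.62), with 516 genes at an unadjusted p under 0.05. The 77 called genes named here all kept their direction in the window. Its cells are a part of the same cells, so kept directions are a description and no support. *Fos* stood at 3.78, *Nnat* at 2.40, *Agt* at 1.65, *Unc13c* at −2.47, *Actr3b* at −1.85 and *Malat1* at −0.52. Other values were smaller by over 1.5 times in the window. They included *Gas6* (0.75 to 0.09), *Crot* (0.41 to 0.15), *Dusp1* (1.79 to 0.96), *Src* (1.32 to 0.65) and *Gstm1* (0.40 to 0.20) on the AST3 side. On the AST2 side they included *Cntn1* (−1.23 to −0.68), *Car8* (−1.01 to −0.52), *Hrh1* (−0.86 to −0.38), *Ogt* (−0.77 to −0.43), *Insig1* (−0.73 to −0.46), *Mertk* (−0.55 to −0.26), *Dhcr7* (−0.55 to −0.29) and *Acsl3* (−0.41 to −0.26). Values larger by over 1.5 times included *Id3* (0.85 to 1.39), *Aqp4* (0.60 to 0.92), *Fads2* (0.54 to 0.89), *Cdc42ep1* (−1.39 to −2.24), *Elmo2* (−0.67 to −1.13) and *Slc38a3* (−0.58 to −0.95).

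**Figure D5:**
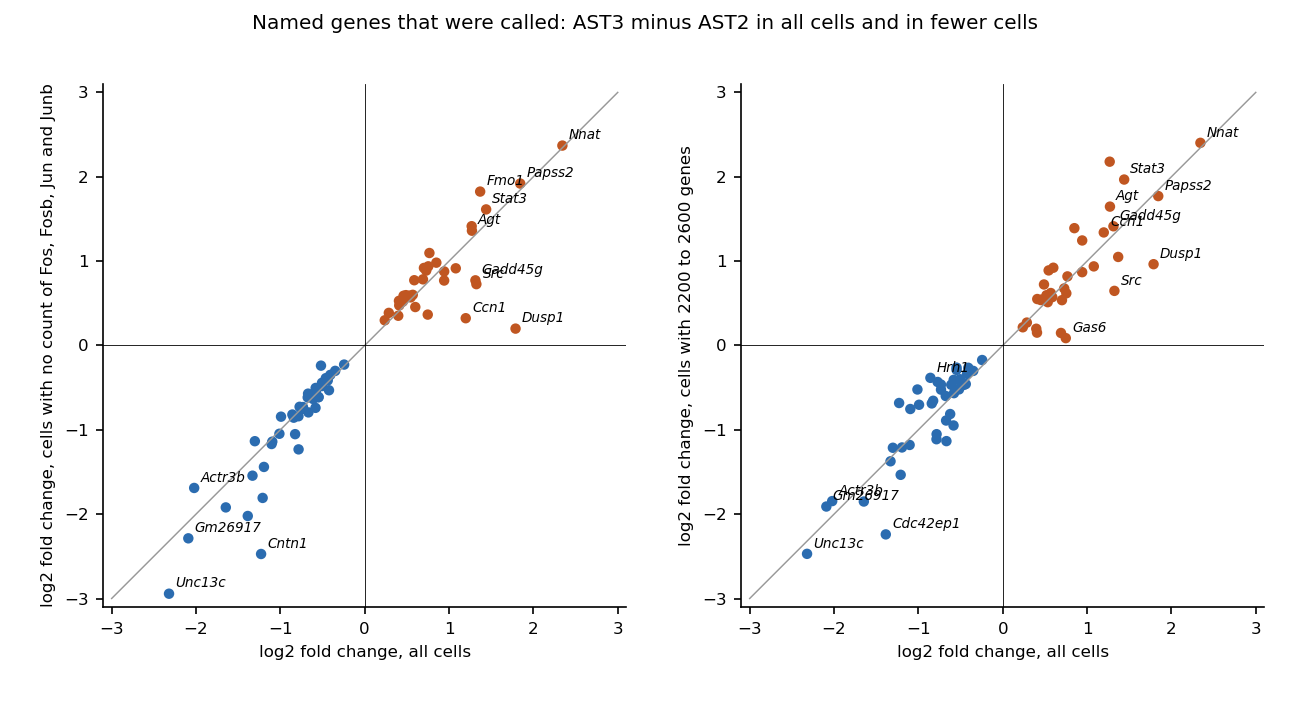
Fitted log2 fold change, AST3 minus AST2, of the called genes named here other than *Fos* and *Jun*, in all cells (horizontal axis) and in fewer cells (vertical axis): left, cells with no count of *Fos*, *Fosb*, *Jun* and *Junb*; right, cells with 2200 to 2600 genes. The line marks equal values. *Dusp1*, 1.79 in all cells, stands at 0.20 on the left, where cells were chosen on genes of its own list. *Nnat*, 2.34 in all cells, stands at 2.37 on the left and at 2.40 on the right.

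In hippocampus, where each of the 2 suspensions pooled 4 littermates and AST2 is rare (10 and 22 cells in the 2 suspensions, against 65 and 82 AST3 cells), the levels of the same genes are given side by side. *Fos* had 293.7 and 310.3 CPM in hippocampal AST2 and 513 and 496 CPM in AST3. *Agt* had 557 and 341.1 CPM in AST2 and 1397 and 1125 CPM in AST3, and *Nnat* 131.8 and 237.04 CPM against 344.7 and 318.1 CPM. These 3 were higher in AST3 in both hippocampal suspensions, but for *Jun*, *Dusp1* and *Ccn1* the suspensions differed in sign. Their log2 ratios of AST3 to AST2 in the first and second were −0.63 and 2.02 for *Jun*, −0.17 and 0.64 for *Dusp1*, and 0.93 and −0.27 for *Ccn1*. By such ratios, 42 of the 77 called genes named from the cortical comparison had their cortical direction in both hippocampal suspensions. The opposite direction in both was found for 5, *Lgr6*, *Atp1b1*, *Msmo1*, *Lgi1* and *Plcb1*. A gene at 0 CPM in a subtype has no ratio in that suspension and is in neither count. *Unc13c* is such a gene, with 0 CPM in both hippocampal AST2 sums and 2.40 and 3.75 CPM in AST3. Its levels were thus also opposite to the cortical direction in both suspensions. *Lgr6*, one of these 5, had 30.9 and 97.8 CPM in AST2 and 108.5 and 164.3 CPM in AST3. A difference between cortex and hippocampus in the contrast of AST3 and AST2, tested as an interaction in the fit of 12 sums, was called by edgeR for 42 genes, or 0.619% of those tested, but for 0 of the 77 called genes named here. The smallest adjusted p among these 77 were those of *mt-Nd1* (edgeR adjusted p = 0.091), *Unc13c* (edgeR adjusted p = 0.093) and *Fos* (edgeR adjusted p = 0.12). Over all genes 525 had an unadjusted p under 0.05.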

How the data were processed

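The deposited counts are the authors' raw reads per gene and cell, without normalization, for 49671 genes and 92 ERCC spike-ins. The authors checked reads with FastQC 0.11.4, aligned them with STAR 2.5.2b to GRCm38.p5 and counted uniquely mapped reads with HTSeq, per the labels and the study's methods. Cell types came from the study's own list, from which 33 cells, all of the first cortical suspension, were missing in the copy used here, and 15 cells carried no type. Of the 2031 cells of the series 2030 had a file of counts; the table of the whole series was not used. Doublets were not called again, since 1 cell was sorted per well. Reads outside exons or on more than 1 gene, and ERCC counts, stayed out of library sizes.

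The subtypes, gene lists and tests were chosen with earlier results of these data known. Counts were summed per subtype and suspension in Python 3.11.15 (numpy 2.4.6, scipy 1.17.1, pandas 2.3.3) and tested in R 4.3.3 with edgeR 4.0.16 (TMM, robust quasi-likelihood fit, ~ suspension + subtype), on genes with a count in at least 10% of the pooled cells. The common biological coefficient of variation was 0.214. The replicate block is given by the design, since both subtypes of a suspension come from the same animal; deviations of same-suspension sums from their subtype means correlated at r = 0.031 across genes, which are not replicates, and 2.09% of genes were called with no replicate block. DESeq2 1.42.0 and limma 3.58.1 served as alternatives. The fit was tested on simulated data before use.

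Named genes were the 12 called genes of widest fold in each direction with a count in over 25% of the cells of the higher subtype in both suspensions, leaving out clone-type names and pseudogenes (4 in each direction); every tested member of the study's AST2 and AST3 genes and of the layer and regional markers; and in other lists up to 4 called members, or else up to 3 of highest level. Positions are from Gencode on GRCm38, not lifted between builds. The p-values of the cortical comparison measure how the difference between the subtypes varied between 2 animals, not the spread of the animals themselves. They rest on 1 residual degree of freedom and a spread shared across genes (median prior degrees of freedom 10.8). Those of the interaction come from the fit of 12 sums, with 4 residual degrees of freedom. That fit also takes in the AST1 sums and the 2 hippocampal pools of 4 animals each. Some genes that this rule names are not reported here.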

Additional observations from a re-analysis of the deposited data

Results flagged for a closer look

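Among the 8 plates of the second cortical suspension, 1 plate lay far from the rest in its share of AST3 among AST2 and AST3 cells, at 21.4% (12 of 56 cells, Wilson 95% interval 12.7 to 33.8). The other 7 plates ran from 33.3% to 40.4%, so that the gap to the nearest was 0.627 of the whole range, above the critical value of 0.526 for 8 values. Chance flags about 1 in 20 such groups, and 8 groups of plates were examined.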

How the results depend on the processing

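The share of genes called, 3.08% of those tested, depended on the fit, and shares are given in the order of all calls, those higher in AST3 and those higher in AST2. With ERCC counts as library sizes 18.9% were called (18.5% and 0.368%), with limma on mean log values 19.2% (18.0% and 1.15%), with DESeq2 7.205% (3.51% and 3.70%), with cells thinned to 500000 counts 5.67% (2.53% and 3.14%), with genes in 25% of cells 14.8% (6.76% and 8.05%), and at an adjusted p under 0.01 1.55% (0.781% and 0.766%). With no replicate block 2.09% were called (1.00% and 1.09%). In cells with no count of *Fos*, *Fosb*, *Jun* and *Junb* 1.00% were called (0.457% and 0.545%), 63 of these 68 genes being calls of all cells too, and in cells with 2200 to 2600 genes 0.0295% (0.0295% and 0). edgeR called 0 genes, and so 0 in each direction, in the fits of 6 and of 12 sums, with the filter of edgeR and with no filter; without either cortical suspension in turn it called 0 to 0 of either direction, where 47 and 38 genes had an unadjusted p under 0.05 and the lone sum was assumed to vary like the other groups. Every called gene kept its direction in those 6 fits without a call, and all but 2 did in the window of genes per cell, all but *Btg2* in cells without counts of those 4 genes (where *Fos*, *Jun* and *Junb* have no value by construction), and all but 10 with ERCC counts as library sizes. These fits take the difference from the same cells or a part of them, and each call already had 1 direction in both suspensions. Kept directions are therefore a description and no support. The cause of the changes was not tested. DESeq2 size factors, sums per plate and leaving out cells with other markers kept the counts within 1.5 times.

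Under ERCC scaling 6 named genes turned to the AST3 side: *mt-Co1* (0.016), *Msmo1* (0.10), *Acsl3* (0.046), *Gpr37l1* (0.21), *Fam107a* (0.030) and *Mfsd2a* (0.42, not called in the 4 sums). That scaling raised genes by nearly the same amount, the median of all from 0.0050 to 0.46, so those that turned had a smaller fold in favour of AST2. The gene difference per cell was 492 as deposited and 388 at 50000 counts. It was 427.5 to 481 without either suspension. Log2 gene counts per ERCC count ranged from 0.45 to 0.53 in the same way. Reads outside exons differed by −3.87 percentage points as a ratio of sums, against −3.70, and by −3.77 to −3.62 without either suspension. AST3 was 31.8% of all typed astrocytes, against 36.9% of AST2 and AST3 cells, and 34.8% to 39.1% without either suspension.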
